A study of Mus musculus with 3 samples.

Results

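Mouse embryonic stem cells (ESCs) were compared with mouse embryonic fibroblasts (MEFs), the control cell types of a microRNA screen that also held neural stem cells (NSCs). The comparison used 2 of the 3 samples, 1 of ESCs and 1 of MEFs, and all 709 mouse microRNA assays, of which 679 gave a value in both samples. Pluripotent ESCs can form every tissue of the body, MEFs are connective tissue cells taken from the embryo into culture, and the NSCs were derived from fetal forebrain. The labels give no strain, embryonic age, culture condition or treatment for any of the samples, and they do not say whether the ESCs were grown on a layer of fibroblasts.

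MicroRNAs are short RNAs cut from a hairpin precursor, and the bases near their start, called the seed, choose the messenger RNAs that they repress. In the mouse, the miR-290 and miR-302 clusters are the characteristic microRNAs of pluripotent cells and share a seed motif that promotes the rapid cell cycle and the stem cell state. The let-7 family rises as cells differentiate and opposes these clusters, and miR-199, miR-214, miR-143 and miR-145 are known from mesenchymal cells such as fibroblasts.

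The sequences below carry the main contrast and come from the RefSeq annotation of the mouse genome (GRCm38.p6), where 242 of the 709 assays matched a mature microRNA by name. They are written 5′ to 3′ with the seed, bases 2 to 8, in capitals. The first set holds the 3p strands of the miR-290 cluster (chromosome 7) and of the miR-302 cluster (chromosome 3), which held most of the differences of at least 50-fold between ESCs and MEFs. miR-292-3p and miR-302a belong to the same set.
miR-290-3p: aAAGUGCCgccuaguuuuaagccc
miR-291a-3p: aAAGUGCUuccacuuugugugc
miR-291b-3p: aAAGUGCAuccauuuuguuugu
miR-293: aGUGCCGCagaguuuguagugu
miR-294: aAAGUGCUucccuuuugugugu
miR-295: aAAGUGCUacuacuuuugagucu
miR-302b: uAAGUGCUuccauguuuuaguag
miR-302c: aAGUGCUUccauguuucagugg
miR-302d: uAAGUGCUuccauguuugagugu

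The second set comes from the miR-17 cluster (chromosome 14) and its paralogues on the X chromosome and chromosome 5, which hold the same letters shifted by a base.
miR-17: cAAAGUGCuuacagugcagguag
miR-20a: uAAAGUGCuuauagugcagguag
miR-106a: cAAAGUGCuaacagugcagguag
miR-93: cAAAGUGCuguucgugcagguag

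The third set shows the miR-200 family, whose members carry either of a pair of seeds, and the fourth shows let-7 members, which share 1 seed and lay on the MEF side.
miR-200b: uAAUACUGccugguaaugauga
miR-200c: uAAUACUGccggguaaugaugga
miR-429: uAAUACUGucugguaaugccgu
miR-200a: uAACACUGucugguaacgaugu
miR-141: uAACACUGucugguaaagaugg
let-7a: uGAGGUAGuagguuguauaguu
let-7d: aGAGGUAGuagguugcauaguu
let-7f: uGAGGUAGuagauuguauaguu
let-7i: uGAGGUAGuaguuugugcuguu

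The fifth set shows 5p strands of miR-290 hairpins, to be read against the 3p strands above.
miR-290-5p: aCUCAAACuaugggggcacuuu
miR-292-5p: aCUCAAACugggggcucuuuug
miR-294*: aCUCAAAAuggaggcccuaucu
miR-295*: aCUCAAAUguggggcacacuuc

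Levels were measured by qRT-PCR after small RNAs were tailed and reverse transcribed, on 2 plates with 380 and 329 microRNA assays. Each value is a Ct, the PCR cycle at which product is detected, so that a lower Ct stands for more RNA. RNA was pooled for each cell type and amplified in 2 PCR runs, which repeat the measurement and not the culture. The mean Ct of 3 small reference RNAs, U6, RNU43 and U1, was subtracted for each plate and sample, and the log2 fold is positive where the level was higher in ESCs. With 1 sample per cell type no test across samples was possible, and the error given as ± covers the PCR runs only. A call of higher or lower required a 4-fold difference, no overlap between the ESC and MEF runs, and a mean Ct of 32 or less in the sample with more RNA. Where pairs of Ct values are set against each other, the ESC runs come before the MEF runs.

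ESCs gave a value for 680 assays and MEFs for 700, and 382 and 515 of these had a mean Ct of at most 32. Both samples reached that Ct for 366 microRNAs, and a further 149 reached it in MEFs alone against 16 in ESCs alone. The reference RNAs were later in ESCs too, by a mean of 1.55 cycles on plate 1 and 1.77 cycles on plate 2, and the median microRNA was 1.79 cycles later. The median log2 fold of all 679 microRNAs was therefore near 0 (-0.11). The median PCR error of a log2 fold was 0.14 where both samples had a mean Ct of at most 32 and 0.44 elsewhere. Another 21 assays gave a value in MEFs only, 8 in neither sample, and miR-741 in ESCs only. In MEFs, miR-127 (mean Ct 26.3), miR-22 (27.9), miR-291b-5p (28.0) and miR-615-5p (28.5) were read early while their ESC wells held no value. An empty well does not show that a microRNA is absent, and these assays have no fold.

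The study also gives a second set of Ct values for MEFs, which differs from the deposited set in every well, whereas the ESC values are the same in every well. The deposited set was used throughout. The direction of each call and of each list was also looked up with the second set, and where it turned this is stated beside the result, without values.

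Of the 679 microRNAs, 36 were called higher in ESCs (5.30%) and 22 lower (3.24%), which is 8.54% called in either direction, and 621 were not called. With the second MEF set most lower calls turned, and the other lower calls kept their direction without a call. Part of the higher calls turned as well. The differences were unequal in size. Among those higher in ESCs, 12 differed by at least 50-fold and 17 by at least 16-fold, whereas 1 of the 22 lower ones, miR-33, reached 16-fold and 0 reached 50-fold. The median log2 fold was 3.74 over the calls that were higher, with a range from 2.03 to 14.57, and -2.48 over those that were lower, with a range from -4.20 to -2.01. In MEFs, 16 of the 36 had a mean Ct above 32, and in ESCs, 13 of the 22 did, so for these the fold rests on a late well. Without the conditions on Ct and overlap, 8.25% of microRNAs were at least 4-fold higher and 6.33% at least 4-fold lower. The split between higher and lower calls moved with the reference: with U1 alone 30 were higher and 35 lower, or 46.2% higher in place of 62.1%, and with miR-16 as the reference 161 were higher and 1 lower, or 99.4%.

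**Figure D1:**
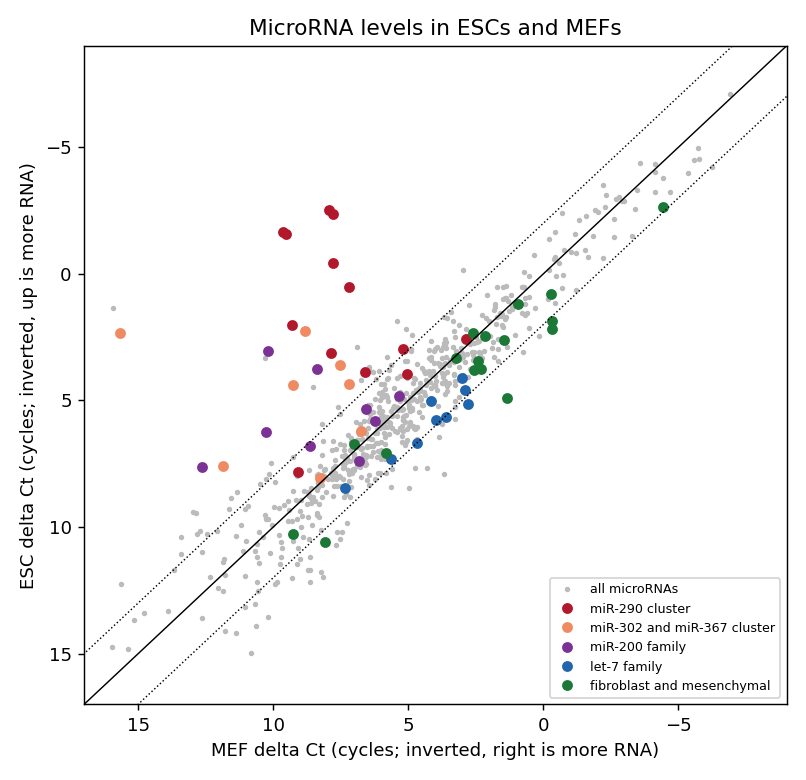
Delta Ct in ESCs (vertical) against delta Ct in MEFs (horizontal), both in cycles with inverted axes, for the 679 microRNAs measured in both samples. The solid line marks equal levels and the dotted lines a 4-fold difference. Most miR-290 and miR-302 members lie far above the upper line, and let-7 and fibroblast members lie on or below the solid line except miR-31 and miR-140 (log2 folds 0.25 and 0.30), whereas with miR-16 as the reference 6 of 9 let-7 and 13 of 17 fibroblast members had a log2 fold above 0.

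The miR-290 cluster, expressed from a single transcript in mouse ESCs, had the highest median of the 21 lists. All 13 measured members had a log2 fold above 0 (12 with U1 alone as the reference), and the median log2 fold was 6.69. Of the 13 members, 10 were called higher (76.9%, against 5.30% of all microRNAs). The Ct of miR-295 was 24.3 and 24.2 in the ESC runs and 34.0 and 33.9 in the MEF runs, a log2 fold of 11.28 ± 0.06. miR-293 was read at 24.4 and 24.2 in ESCs and at 33.7 and 34.1 in MEFs, a log2 fold of 11.10 ± 0.23. For both, the gap between the cell types was many times the gap between the runs of a sample.

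Next came miR-291a-3p and miR-294, which hold the same seed as miR-295. miR-291a-3p came up at 23.4 and 23.3 in ESCs and at 31.9 and 32.6 in MEFs (log2 fold 10.46 ± 0.37). miR-294 was detected at 23.6 and 23.5 in ESCs and at 32.25 and 32.01 in MEFs (10.16 ± 0.13). miR-294 is known from mouse ESCs as a microRNA that speeds passage into S phase. miR-292-3p followed with Ct values of 25.5 and 25.4 against 31.6 and 32.7 (8.24 ± 0.51), then miR-291b-3p with 27.9 and 28.0 against 33.7 and 33.6 (7.31 ± 0.06). miR-290-3p was read at 26.4 and 26.4 in ESCs and at 31.8 and 31.4 in MEFs (6.69 ± 0.20), so that in each of these 3p strands every MEF run was later than every ESC run before the reference was taken into account.

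The other strands of the same hairpins differed less. miR-294* had Ct values of 29.4 and 29.2 in ESCs and 32.4 and 32.1 in MEFs (4.73 ± 0.15), miR-295* of 29.8 and 30.2 against 30.8 and 31.2 (2.73 ± 0.26), and miR-292-5p of 28.8 and 28.9 against 29.6 and 29.5 (2.24 ± 0.03). These 3 were called higher, and miR-292-5p lost its call with U1 alone as the reference (1.899). miR-293* (log2 fold 1.23 ± 0.77), miR-290-5p (1.08 ± 0.11) and miR-291a-5p (0.28 ± 0.10) were not called. For miR-291a-5p the Ct was in fact earlier in MEFs (27.3 and 27.1) than in ESCs (28.5 and 28.5), and the fold lay above 0 only through the later reference RNAs in ESCs. With U1 alone as the reference the log2 fold of miR-291a-5p was -0.07. For miR-291b-5p the ESC wells held no value.

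**Figure D2:**
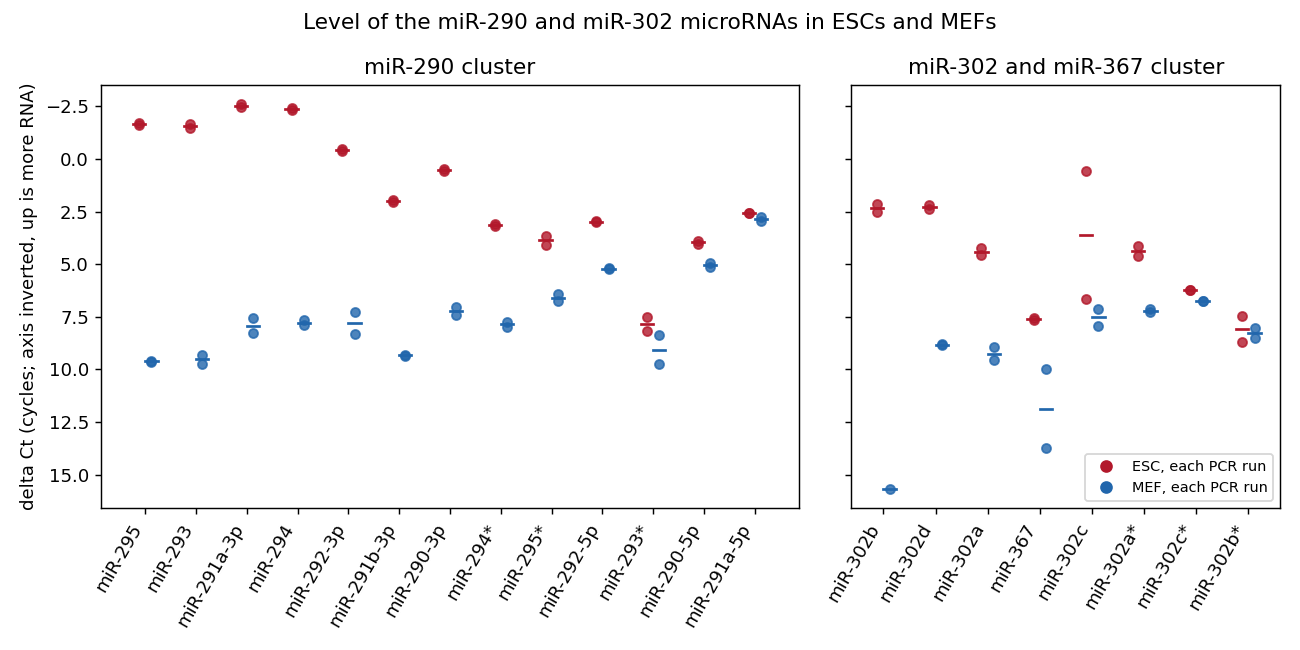
Delta Ct of each PCR run (points) and its mean (lines) for the measured members of the miR-290 cluster and of the miR-302 and miR-367 cluster, in cycles on an inverted axis, ESCs in red and MEFs in blue. The 3p strands at the left of each panel are separated most, and the miR-302c runs in ESCs lie about 6 cycles apart.

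The miR-302 and miR-367 cluster, which in other work marks pluripotent cells from the epiblast stage, was also higher in ESCs. All 8 measured members had a log2 fold above 0 (7 with the mean of early microRNAs as the reference), and the median was 4.08. Of the 8 members, 5 were called higher (62.5%, against 5.30% of all microRNAs). miR-302d gave the cleanest reading, with Ct values of 28.1 and 28.3 in ESCs and 33.2 and 33.1 in MEFs (6.55 ± 0.09). miR-302a was read at 30.1 and 30.5 against 33.3 and 33.9 (4.84 ± 0.37), and its partner strand miR-302a* at 30.8 and 30.3 against 31.53 and 31.67 (2.84 ± 0.26). miR-302b had the second highest fold of all called microRNAs, with Ct values of 28.0 and 28.4 in ESCs, but only 1 of the 2 MEF runs gave a value, at a Ct of 40.0 (log2 fold 13.34 ± 0.18, the error from the ESC runs alone). With later and empty wells set to a Ct of 32, the log2 fold of miR-302b was 5.32, which is a lower bound.

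miR-302c had the largest PCR error of the calls. Its ESC runs were at 26.5 and 32.5 and its MEF runs at 31.46 and 32.29, so that the log2 fold of 3.91 had an error of 3.06, and with run 2 alone it was 1.29 and no longer called. miR-367 was at 33.4 and 33.6 in ESCs and at 34.3 and 38.1 in MEFs (4.26 ± 1.89) and was too late to be called. miR-302c* (0.53 ± 0.02) and miR-302b* (0.20 ± 0.64) were not called. All 15 calls of the miR-290 and miR-302 clusters were also calls in the same direction with the second MEF set.

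The members of these clusters with the highest folds share letters in the seed. The motif AAGUGC starts at base 1, 2 or 3 in 15 of the 228 assays that were measured and matched to a RefSeq sequence, and in 18 of the 1679 mouse mature sequences of the table (1.07%). In all 7 assays with the motif at base 2 (miR-290-3p, miR-291a-3p, miR-291b-3p, miR-294, miR-295, miR-302b and miR-302d) the level was called higher, with a median log2 fold of 10.16. Among them, the 5 with the seed AAGUGCU had a median of 10.46. miR-302c holds the motif at base 1. With the motif at base 3, which is the seed AAAGUGC of the miR-17 family and the related sequence of miR-105, 0 of 7 were called and the median was 1.51. miR-293, with a log2 fold of 11.10, does not hold the motif, and its seed GUGCCGC has only part of the letters. Over the 213 assays without the motif the median was -0.12, with 11 called higher and 9 lower. Over all 228 matched and measured assays 19 were called higher and 9 lower. At such shares the count of 0 calls among 7 assays does not set the motif at base 3 apart. The motif was looked for on the RNA strand only, and its presence is a description of these sequences.

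The miR-17 cluster and its paralogues, which promote growth and are abundant in many dividing cells, lay above the other microRNAs with small differences. Of 21 measured, 18 had a log2 fold above 0 and the median was 1.12. The only call was miR-18a* (Ct 29.8 and 29.8 in ESCs, 30.0 and 30.0 in MEFs, log2 fold 2.03 ± 0.01). This is 4.76% of the list, close to the 5.30% called higher over all microRNAs. Just outside the threshold lay miR-106a, with Ct values of 27.5 and 27.7 in ESCs and 28.1 and 28.0 in MEFs (1.95 ± 0.13). miR-20a stood at 1.92 ± 0.13, miR-20b at 1.83 ± 0.08 and miR-17 at 1.51 ± 0.09. For these 5 the raw Ct differed by less than 1 cycle between the cell types, and most of the fold came from the shift of the reference RNAs, whereas miR-19a (27.4 and 27.4 against 25.1 and 25.1) and miR-19b (27.14 and 27.00 against 24.98 and 25.04) were about 2 cycles earlier in MEFs. miR-363, a member that shares its seed with miR-92a, was at 32.4 and 31.9 in ESCs and at 34.7 and 34.4 in MEFs (3.95 ± 0.29) and missed the limit on Ct. The 3 members below 0 were all of miR-19: miR-19a (-0.78 ± 0.02), miR-19a* (-0.63 ± 0.37) and miR-19b (-0.51 ± 0.07). The call of miR-18a* was lost with U1 alone, with the mean of early microRNAs as the reference, with 1.9-fold amplification per cycle and with the second MEF set.

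The miR-200 family, which keeps cells epithelial by repressing Zeb1 and Zeb2, held 2 of the calls that were higher in ESCs. miR-200c had Ct values of 29.04 and 28.83 in ESCs and 35.5 and 33.6 in MEFs (log2 fold 7.16 ± 0.99). miR-200b was read at 29.8 and 29.5 in ESCs and at 33.2 and 32.3 in MEFs (4.65 ± 0.49). These 2 were called higher and kept their call with the second MEF set. miR-200a (33.4 and 33.7 against 37.8 and 36.2, log2 fold 5.02 ± 0.82) and miR-429 (31.7 and 32.6 against 34.7 and 34.5, 4.01 ± 0.45) showed differences of similar size but were above the Ct limit in ESCs. miR-141 was at 1.81 ± 0.37, and the 4 star strands ranged from -0.56 for miR-200c* to 1.24 for miR-200b*. Over the 9 measured members, the median log2 fold was 1.81. The 2 calls were 22.2% of these members, against 5.30% called higher over all microRNAs.

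In the miR-183 cluster, known from epithelial and sensory cells, miR-182 (28.3 and 28.3 against 29.3 and 29.1, log2 fold 2.46 ± 0.11) and miR-183 (29.6 and 29.9 against 30.1 and 30.7, 2.21 ± 0.33) were called higher. miR-96 had a log2 fold of 2.60 ± 0.94 at a Ct above 33 in ESCs, and miR-183* was at 0.16 ± 0.07. Of the 4 members 2 were therefore called higher (50%, against 5.30% of all microRNAs), with a median of 2.34. The median and both calls turned in direction with the second MEF set, and the call of miR-183 was lost with U1 alone.

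The miR-297, miR-466, miR-467 and miR-669 families are mostly encoded as many near-copies in an intron of the Sfmbt2 gene, which is imprinted. Of 52 measured members, 34 had a log2 fold above 0, and the median was 0.75. In these families 7 were called higher (13.5%, against 5.30% of all microRNAs) and 0 lower (against 3.24%). The called members were all miR-466 and miR-467 strands, from miR-466b-3p (29.6 and 29.6 in ESCs, 31.0 and 30.6 in MEFs, 2.77 ± 0.21) to miR-466e-3p (2.03 ± 0.20). miR-467b was at 2.57 ± 0.15 and miR-466c-3p at 2.45 ± 0.13. The calls of miR-466e-3p and miR-467a were lost with U1 alone, as were that of miR-466e-3p with run 1 alone and 1.9-fold amplification and that of miR-467a with run 2 alone. No miR-669 member was called, and their log2 folds lay between 1.70 ± 0.06 for miR-669e and -1.33 ± 0.63 for miR-669i. Since these microRNAs have nearly the same sequence, an assay may also read its relatives, which was not tested. With the second MEF set the median of the families and the direction of all 7 calls turned.

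Among the other microRNAs called higher, miR-879 had the highest fold of all, 14.57 on the log2 scale, but this rests on 1 ESC well at a Ct of 27.5 and 1 MEF well at 40.3, without an error, and its direction turned with the second MEF set. With later and empty wells set to a Ct of 32 its log2 fold was 4.01. miR-346, a microRNA known from brain, was at 29.3 and 29.1 in ESCs and had 1 MEF well at 34.6 (6.97 ± 0.14 from the ESC runs). It kept its direction but not its call with the second set. miR-150, a lymphocyte microRNA, was at 30.3 and 30.4 against 32.5 and 33.3 (4.04 ± 0.41), and miR-1949 at 29.04 and 29.05 against 31.3 and 31.3 (4.02 ± 0.02). Both were calls with the second set as well.

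miR-335-3p comes from a hairpin in an intron of the imprinted gene Mest. Its level was higher in ESCs, with Ct values of 27.7 and 27.8 against 29.7 and 29.9 (3.57 ± 0.10), while its partner strand miR-335-5p had a log2 fold of -1.40 ± 0.40 and was not called. The direction of miR-335-3p turned with the second MEF set. miR-1894-3p (3.12 ± 0.08), miR-712* (2.91 ± 0.36) and miR-1957 (2.58 ± 0.27) were called as well, and miR-376b (2.29 ± 0.53) was the only member of the Dlk1-Dio3 list that was called higher. The call of miR-376b was lost with U1 alone as the reference (1.95), with later wells set to a Ct of 32 (1.91) and with run 2 alone (1.71). With the second set miR-712* and miR-376b were called again, miR-1894-3p kept its direction without a call, and miR-1957 turned.

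The let-7 family held 3 of the lower calls, with small and even differences. All 9 measured members had a log2 fold below 0, with a median of -1.70 and a range from -2.38 to -0.87. With miR-16 as the reference, however, the median was 0.15, against 1.60 for all microRNAs. Of the 9 members, 3 were called lower (33.3%, against 3.24% of all microRNAs). let-7a had Ct values of 31.47 and 30.61 in ESCs and 27.2 and 27.0 in MEFs (-2.38 ± 0.44). let-7d was read at 31.6 and 31.4 in ESCs and at 27.8 and 28.1 in MEFs (-2.06 ± 0.15), and let-7f at 32.9 and 32.2 against 29.2 and 28.9 (-2.01 ± 0.37). In each of the 3 the raw Ct values of the samples lay more than 2 cycles apart. After the reference RNAs were subtracted, the nearest ESC and MEF runs were less than 2 cycles apart. Their delta Ct was 4.72 and 2.86 for let-7a, 5.55 and 3.71 for let-7d, and 6.33 and 4.81 for let-7f.

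let-7b was at -1.79 ± 0.37, let-7c at -1.70 ± 0.20 and let-7g at -1.67 ± 0.29, close to the threshold, and let-7i at -0.87 ± 0.21 differed least. let-7d and let-7f were not called with U6 alone, RNU43 alone, miR-16, run 2 alone or 1.9-fold amplification, let-7f was not called with later wells set to a Ct of 32 either, and let-7a was not called with miR-16. The members share a seed and differ from each other by few bases, so that an assay may read more than 1 of them. The microRNAs that lie in the same genomic clusters as let-7, namely miR-99, miR-100 and miR-125, were all below 0 too (8 of 9 with RNU43 alone as the reference). Their median was -0.76 over 9, or 1.02 with miR-16 as the reference. The range was from -1.27 ± 0.03 for miR-125a-3p to -0.15 ± 0.19 for miR-125b-3p. Of the 9, 0 were called, against 8.54% of all microRNAs. With the second MEF set the medians of both lists turned, as did the 3 let-7 calls.

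In the fibroblast and mesenchymal list, 15 of 17 measured members had a log2 fold below 0, and the median was -1.13, or 0.64 with miR-16 as the reference. Of the 17 members, 3 were called lower (17.6%, against 3.24% of all microRNAs) and 0 higher (against 5.30%). miR-214*, from the Dnm3os transcript, was the most reduced of these, with Ct values of 31.0 and 31.1 in ESCs and 25.8 and 25.7 in MEFs (-3.56 ± 0.07). miR-199a-5p, which lies in the same transcript, was at 28.1 and 28.0 in ESCs and at 24.0 and 24.0 in MEFs (-2.49 ± 0.05), and the related miR-199b* at 28.1 and 28.0 against 24.1 and 24.0 (-2.21 ± 0.07). These were among the most precise of the lower calls, and the sequences of miR-214* and miR-199a-5p are given for that reason.
miR-214*: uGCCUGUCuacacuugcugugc
miR-199a-5p: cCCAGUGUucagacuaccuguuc

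Other members differed less. miR-21, abundant in fibroblasts, was read at 23.3 and 23.2 in ESCs and at 19.90 and 19.95 in MEFs (-1.80 ± 0.05). The log2 fold was -1.13 ± 0.02 for miR-143 and -1.06 ± 0.04 for miR-145, which come from a shared transcript in smooth muscle and mesenchymal cells, -1.21 ± 0.08 for miR-199a-3p and -1.05 ± 0.17 for miR-214. miR-31 (0.25 ± 0.09), miR-31* (-0.09 ± 0.08) and miR-152 (-0.25 ± 0.05) had log2 folds near 0. The median delta Ct of the list was 3.33 in ESCs and 2.32 in MEFs, against 7.76 in NSCs. The medians of the ESC and MEF samples thus lay about 1 cycle apart. In ESCs, 13 of the 17 had a mean Ct of at most 32, and 15 in MEFs. What part fibroblast RNA may have in the ESC sample was not tested. With the second MEF set the median of this list and all 3 calls turned.

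The Hox cluster microRNAs, which mark position along the body axis, had a median nearer to that of all microRNAs than the fibroblast list. All 8 measured had a log2 fold below 0 (6 with RNU43 alone as the reference), as had 371 of all 679 microRNAs. Of the 8, 0 were called, against 8.54% of all microRNAs, so this count does not set the list apart. The median of -0.64 rose to 1.19 with miR-16 as the reference and turned with the second MEF set. The largest differences, of miR-10a* (-2.13 ± 0.21) and miR-196a* (-1.75 ± 0.37), rest on late wells, with a mean Ct of 35.4 and 33.5 in MEFs. miR-196a was at 29.6 and 29.2 in ESCs and at 26.8 and 26.9 in MEFs (-0.999 ± 0.20), miR-196b at -1.04 ± 0.18, and miR-10a and miR-10b at -0.29 ± 0.20 and -0.25 ± 0.23. miR-10b had a delta Ct of 4.65 in ESCs and 4.40 in MEFs, against 10.64 in NSCs.

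**Figure D3:**
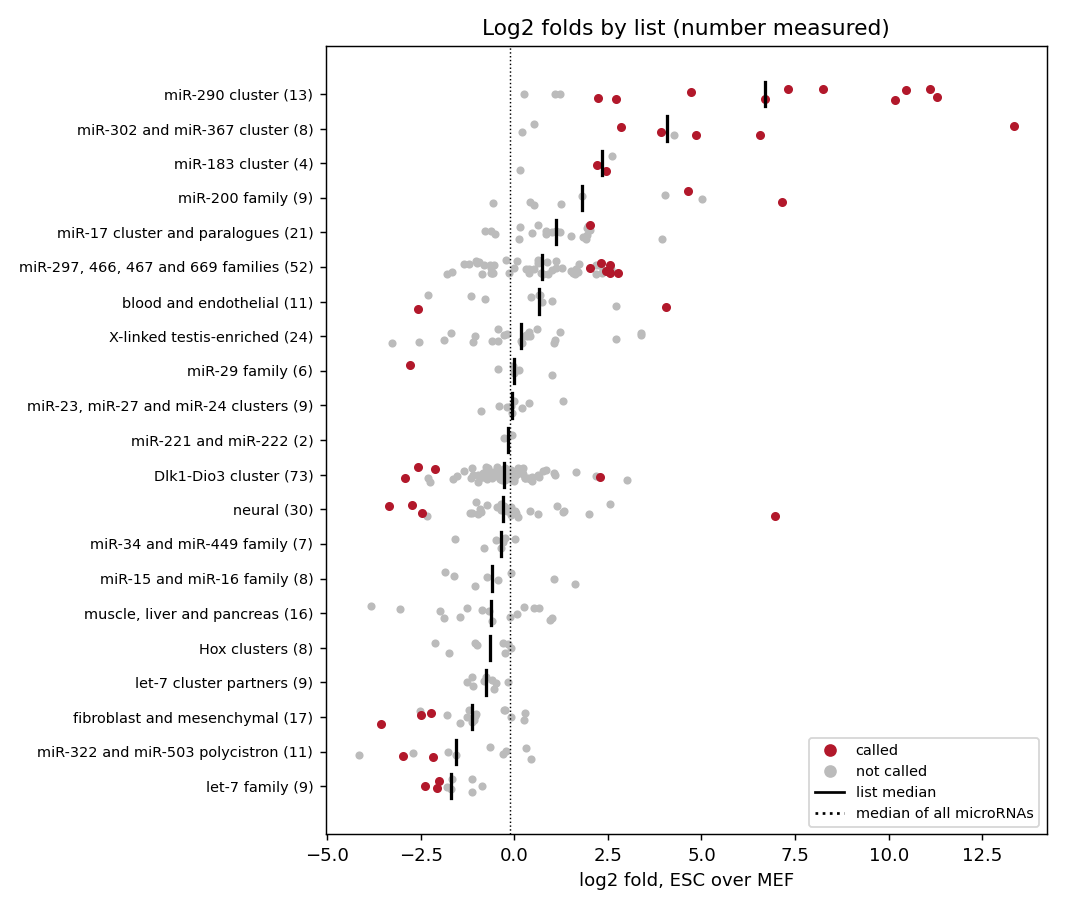
Log2 fold of ESCs over MEFs for each measured microRNA of the 21 lists, ordered by list median (black line), with called microRNAs in red and the number measured in brackets. The dotted line is the median of all 679 microRNAs (-0.11), and the lists reach from a median of 6.69 for the miR-290 cluster to -1.70 for let-7, which was 0.15 with miR-16 as the reference.

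Among the remaining lower calls, miR-33, which lies in an intron of Srebf2 and acts on cholesterol transport, had the strongest difference. It was detected at 33.3 and 34.2 in ESCs and at 28.0 and 28.1 in MEFs (-4.20 ± 0.46), and it was the only lower call that was kept with each of the 5 other references. Its ESC wells were late, and with later wells set to a Ct of 32 its log2 fold was -2.42, still a call. With the second MEF set it kept its direction but not its call. Its sequence is given as that of the largest reduction.
miR-33: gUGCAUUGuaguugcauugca

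miR-455* (33.9 and 35.3 against 29.2 and 29.5, -3.51 ± 0.72), known from cartilage, and miR-219 (32.8 and 34.3 against 28.37 and 28.96, -3.35 ± 0.80), known from oligodendrocytes, rest on late ESC wells, were not called with later wells set to a Ct of 32, and their direction turned with the second MEF set. miR-218, which in neurons and mesenchymal cells is produced from the Slit genes, was at 31.51 and 31.76 in ESCs and at 27.5 and 27.7 in MEFs (-2.47 ± 0.17), and miR-223, a microRNA of myeloid cells, at 32.4 and 32.3 against 28.3 and 28.2 (-2.57 ± 0.09). miR-218 and miR-223 kept their direction with the second MEF set, without a call.

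The miR-322 and miR-503 polycistron, which restrains the cell cycle, had a median log2 fold of -1.56 over 11 members (0.28 with miR-16 as the reference). In it miR-322* (-2.16 ± 0.13) and miR-542-5p (-2.96 ± 1.91) were called lower (18.2%, against 3.24% of all microRNAs). miR-322 itself was just short of the threshold, at 29.3 and 29.4 in ESCs and 26.0 and 26.0 in MEFs (-1.76 ± 0.02). In the miR-29 family, which represses collagen genes, miR-29b was called (-2.79 ± 1.63) on ESC wells of 32.7 and 35.9, while miR-29a (-0.43 ± 0.23) and miR-29c (0.12 ± 0.21) were not. This call was 16.7% of the 6 members, against 3.24% called lower over all microRNAs. The median of the 6 was -0.01, which lay above 0 with U6, RNU43 or miR-16 as the reference and with runs within 1 cycle. In the Dlk1-Dio3 cluster, an imprinted region with many microRNAs that are read from the maternal chromosome, 3 of 73 measured members (4.11%, against 3.24% of all microRNAs) were called lower, namely miR-376a (-2.92 ± 0.34), miR-377 (-2.57 ± 1.03, from 1 MEF well) and miR-136 (-2.11 ± 0.57), and 1 higher (1.37%, against 5.30%), with a median of -0.26 that lay above 0 when later wells were set to a Ct of 32 or miR-16 was the reference. With later wells set to a Ct of 32 the calls of miR-29b, miR-542-5p, miR-376a, miR-377 and miR-136 were lost. The call of miR-136 was also lost with U6 alone, RNU43 alone, run 2 alone and 1.9-fold amplification, that of miR-29b with run 1 alone, that of miR-542-5p with run 2 alone, those of miR-542-5p and miR-377 with later wells set to a Ct of 35, and that of miR-322* with 1.9-fold amplification. The medians of these 3 lists and all lower calls among them turned with the second MEF set.

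Further lower calls outside the lists were miR-1897-5p (-2.36 ± 0.14), miR-804 (-2.30 ± 0.04), miR-374 (-2.04 ± 0.96) and miR-1274a (-2.02 ± 0.17), and miR-325* (-2.72 ± 0.17) was called from the neural list. miR-374 and miR-1274a were not called with U6 alone, RNU43 alone, miR-16, run 2 alone or 1.9-fold amplification, and miR-374 and miR-325* were not called with later wells set to a Ct of 32. With the second MEF set miR-374 and miR-1274a kept their direction without a call, and the direction of the other 3 turned. miR-1274a was read very early in both samples, at 21.82 and 22.03 in ESCs and at 18.004 and 18.28 in MEFs.

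Lists for other cell types held few microRNAs, and their calls are given beside the 8.54% called over all microRNAs. Of 30 neural microRNAs measured, 1 was higher and 3 lower (13.3% called), with a median of -0.29 that lay above 0 with miR-16 as the reference. miR-9, a neural progenitor microRNA, was late in both samples, with 1 ESC well at 38.1 and MEF wells at 34.8 and 33.5. Of 11 blood and endothelial microRNAs 1 was higher and 1 lower (18.2% called), with a median of 0.67 that fell to -0.95 with run 2 alone. Of 16 muscle, liver and pancreas microRNAs 0 were called. Their median of -0.63 lay above 0 with miR-16 as the reference (1.22), with later wells set to a Ct of 32 and with late microRNAs left out, and the earliest of them in MEFs was miR-206, a muscle microRNA, at 27.6 and 27.6 against 30.8 and 31.4 in ESCs (-1.98 ± 0.30). Of 24 testis-enriched microRNAs of the X chromosome 0 were called, and 2 of them had a mean Ct of at most 32 in ESCs. Their median of 0.19 lay below 0 with U1 alone, with the mean of early microRNAs, with runs within 1 cycle and with run 1 alone, at -0.27 or above. The medians of the neural, the muscle, liver and pancreas, and the testis-enriched lists turned with the second MEF set, and that of the blood and endothelial list did not.

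Several families that are widely expressed had medians near that of all microRNAs. The median log2 fold was -0.17 for miR-221 and miR-222, -0.06 for the 9 members of the miR-23, miR-27 and miR-24 clusters, -0.36 for the 7 of the miR-34 and miR-449 family and -0.59 for the 8 of the miR-15 and miR-16 family. In these lists 0 members were called, against 8.54% of all microRNAs, although single members of the last ranged from -1.85 for miR-16 to 1.63 for miR-497. All of these medians lay above 0 with miR-16 as the reference, since miR-16 itself had a log2 fold of -1.85 ± 0.11. The median of miR-221 and miR-222 was also above 0 with RNU43 alone, and that of the miR-23, miR-27 and miR-24 clusters with U6 alone, RNU43 alone and run 2 alone. The medians of these lists turned with the second MEF set except that of the miR-15 and miR-16 family. With 1 sample of each cell type, values this close to 0 do not show that the levels are equal.

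**Figure D4:**
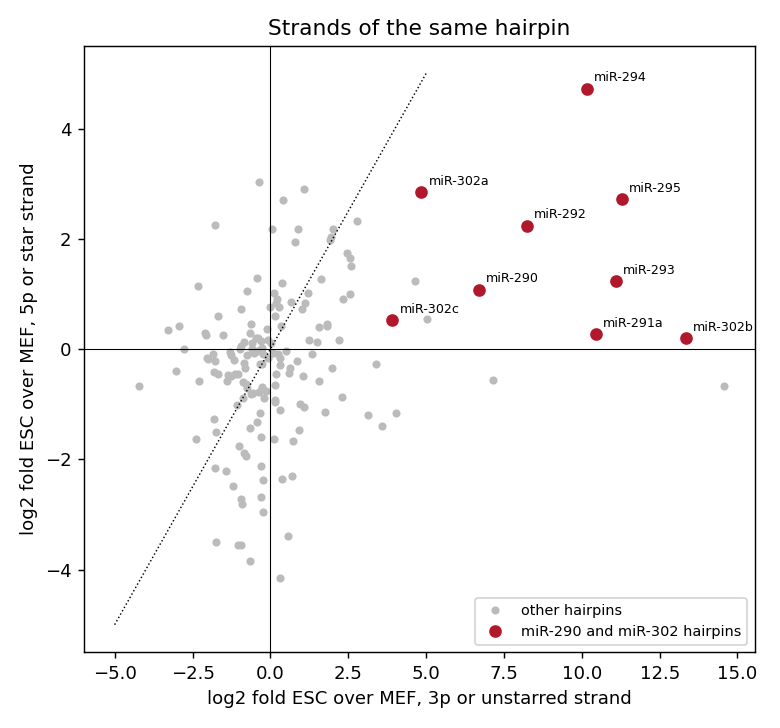
Log2 fold of ESCs over MEFs for the 5p or star strand (vertical) against the 3p or unstarred strand (horizontal) of 167 hairpins. The 9 miR-290 and miR-302 hairpins, in red, lie to the right of the dotted line of equal folds, with both strands above 0 (miR-291a-5p lies at -0.07 with U1 alone as the reference).

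For 167 hairpins both strands were measured in both samples. The strands are separate products of the same precursor, read on separate assays, so a partner strand does not repeat the measurement. In the miR-290 and miR-302 clusters all 9 such hairpins had the same sign for both strands, both strands were called in 4 and 1 strand in 5, and the median absolute difference between the strands was 5.997 on the log2 scale. In the other 158 hairpins, 97 had the same sign, both strands were called in 0 and 1 strand in 32, and the median absolute difference was 1.05. In 0 of the 167 were the strands called in opposite directions. Over all microRNAs only 5.30% were called higher and 3.24% lower. Few opposite calls could therefore occur, and this count does not show that the strands agree. The widest gaps outside the pluripotency clusters were those of miR-879 and miR-879* (14.57 and -0.68), miR-200c and miR-200c* (7.16 and -0.56), miR-150 and miR-150* (4.04 and -1.16), and miR-335-3p and miR-335-5p (3.57 and -1.40). Over the 167 hairpins Pearson's r between the strands was 0.25 and Spearman's rho 0.33. In the 158 hairpins outside the miR-290 and miR-302 clusters r was 0.15 and rho 0.25. The strand taken first was the 5p or the unstarred one, and the coefficients depend on this order. They are a description across hairpins that share the samples and the reference RNAs.

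The third sample gives a further point for each call. Of the 36 microRNAs called higher in ESCs, the NSC level was at or below the MEF level for 24, between the ESC and MEF levels for 11, and above the ESC level for 1. For miR-295 the delta Ct was -1.65 in ESCs, 9.62 in MEFs and 10.75 in NSCs, and for miR-200c 3.04, 10.20 and 8.49. Of the 22 microRNAs called lower in ESCs, the NSC level was at or below the ESC level for 11, between for 10, and above the MEF level for 1. let-7a stood at 5.15 in ESCs, 2.77 in MEFs and 4.39 in NSCs, and miR-199a-5p at 2.17, -0.32 and 7.96. The calls were selected on the same ESC and MEF levels that sort these counts. No share over all microRNAs was computed, so the counts only describe the calls. Most of the lower calls, let-7a and miR-199a-5p among them, turned with the second MEF set, as did part of the higher calls.

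**Figure D5:**
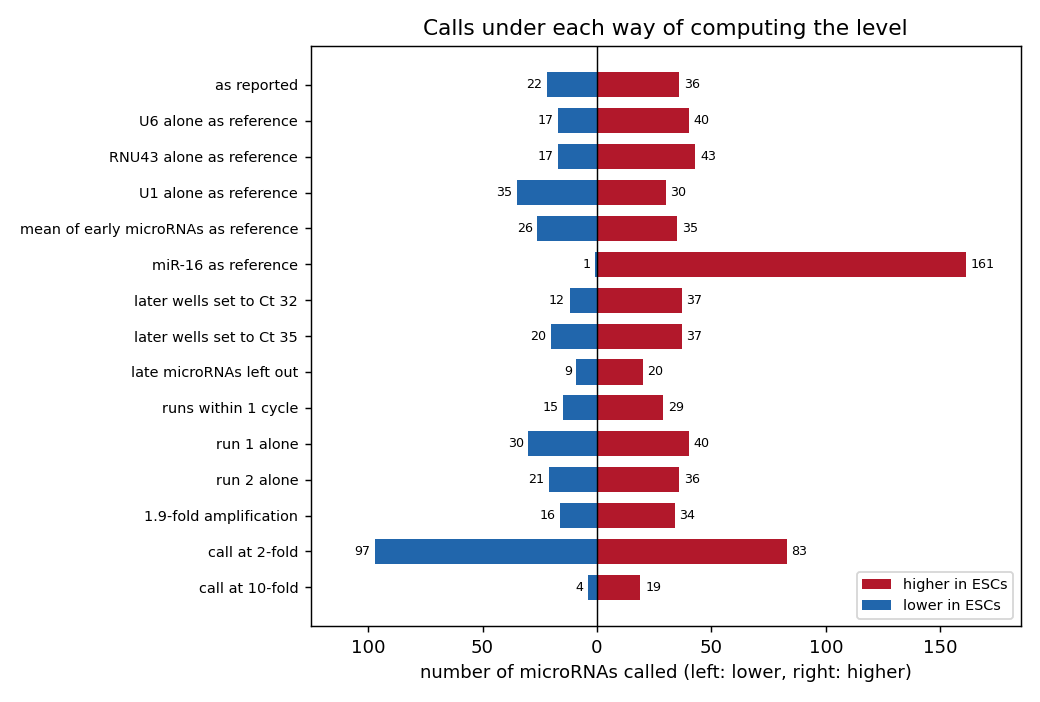
Number of microRNAs called higher (right, red) and lower (left, blue) in ESCs than in MEFs under each way of computing the level, with bars starting at 0. The number called higher stays between 29 and 43 except with miR-16 as the reference, with late microRNAs left out and at other fold thresholds, and the number called lower ranges from 1 to 97.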

How the data were processed

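The deposited tables hold the Ct of every well, in PCR cycles, and the authors' delta Ct per sample, and 2 further tables hold only the authors' folds and p-values for other comparisons and were not used. The authors measured 709 mouse assays based on miRBase version 14 with SYBR Green and 40 cycles. The fluorescence threshold behind a Ct is not given in the sources used, and 10 ESC and 14 MEF wells above 40 were kept. The deposited delta Ct equals the mean Ct of the runs minus that of U6, RNU43 and U1 within 0.001 cycles, except for ESCs on plate 1, where 6.90 cycles more were subtracted, so it was computed again from the Ct. RNU43 had 1 ESC run on plate 1. No-template wells held no Ct in any of 8 wells.

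The log2 fold is MEF delta Ct minus ESC delta Ct at a doubling per cycle. Its error combines the run SDs of ESCs and MEFs, each over the square root of 2, in quadrature, without the error of the reference RNAs. Where 1 cell type had a single run, the error came from the other cell type. The labels do not say how many cultures were pooled. No test was made. The computation was checked on simulated Ct values.

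The members and the 21 lists were chosen with earlier results of these data known. Named were all miR-290, miR-302 and miR-367 members, the 12 highest and 12 lowest calls, up to 4 members per other list with the largest differences, and partner strands. The other calls, other list members, miR-335-5p, miR-105 and the assays measured in 1 sample were named after their values were seen. Alternatives were other references, limits on late wells, agreement of runs, each run, amplification and call threshold. Assays were matched to RefSeq mature microRNAs by name, with strands assigned by hand. Python 3.11.15, pandas 2.3.3, numpy 2.4.6 and matplotlib 3.10.9 were used.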

Additional observations from a re-analysis of the deposited data

How the results depend on the processing

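Of the 36 microRNAs called higher in ESCs, 30 were also called with each of the 5 other references, among them 14 of the 15 miR-290 and miR-302 calls. U6, RNU43 and miR-16 raised every log2 fold, so they could not remove a higher call. With U1 alone 30 of the 36 were kept, and with the mean of early microRNAs 35. Of the 22 called lower, 17 were called with every reference other than miR-16. Relative to the median of all microRNAs, which was -0.11 as reported, -0.33 with U1 alone, -0.26 with the mean of early microRNAs, 0.06 with RNU43 alone and 1.60 with miR-16, the medians of the miR-290, miR-302, miR-17, miR-200, miR-183, let-7, fibroblast and Hox lists kept their side in all 12 alternatives that left the call threshold alone. A change of reference shifts all microRNAs of a plate alike, so the 5 other references could hardly turn these relative medians. Taken against 0, the let-7, fibroblast and Hox medians rose to 0.15, 0.64 and 1.19 with miR-16. The second MEF set was not among these 12 alternatives. With that set the medians of the miR-183, let-7, fibroblast and Hox lists turned in direction. The number called lower was 35 with U1 alone and 12 with later wells set to a Ct of 32. With miR-16 as the reference, 161 were higher and 1 lower. With late microRNAs left out 20 were higher and 9 lower, since 366 microRNAs were then considered. At a threshold of 2-fold 83 were higher and 97 lower, and at 10-fold 19 were higher and 4 lower. With the second MEF set, most lower calls and part of the higher calls turned. The other lower calls, miR-33, miR-218, miR-223, miR-374 and miR-1274a, kept their direction without a call. With the deposited values, single calls changed sign only where late wells were set to a limit. At a Ct of 32 the log2 fold became 1.36 for miR-377, 1.34 for miR-542-5p and 1.63 for miR-325*, and at a Ct of 35 it became 0.00324 for miR-377. In these the ESC wells were late, and for miR-377 the empty MEF well was set to the limit as well, so the limits reduced the difference in Ct. No paired analysis was possible because there is 1 sample per cell type. The deposited delta Ct of ESCs on plate 1, if used as it stands, would raise each log2 fold of that plate by 6.90. With 1 sample per cell type the spread between cultures is unknown, and above a Ct of 32 the PCR error was about 3 times as large as at earlier Ct.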

Other observations

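Of the microRNAs with a difference of at least 4-fold, 20 higher and 21 lower in ESCs were not called, and in all of them the higher sample had a mean Ct above 32. Among them were miR-200a, miR-367, miR-429 and miR-363 in ESCs, and miR-450a-5p (log2 fold -4.15 ± 1.01) and miR-133a* (-3.84 ± 1.64), which were higher in MEFs. In some of the uncalled microRNAs, such as miR-499 and miR-487b, the ESC and MEF runs overlapped as well. Calls were more frequent on plate 1, with 27 higher and 14 lower of 356 measured microRNAs, than on plate 2, with 9 higher and 8 lower of 323, and the plates hold different microRNAs.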
